A study of Mus musculus with 8 samples.

Results

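The 38 Hox cluster genes described here are 38 of the 49585 genes with a value in each deposited file, taken as the rows whose identifier carries 1 of 38 mouse Hox symbols in GENCODE. All 38 were found. They were measured in 8 polyA RNA-seq libraries from the dorsal horn of lumbar segments L4 to L6, the part of the spinal cord that receives pain and touch input. The libraries fall into 2 groups of adult C57BL/6J mice: 4 libraries from miR-96 KO mice, which lack the microRNA miR-96, and 4 from WT mice. No other treatment is named in the labels. The labels number the libraries of a genotype without tying them to animals, so a p-value reflects how far these libraries scatter, and part of that scatter may be technical.

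Hox genes encode homeodomain transcription factors and lie in 4 clusters on 4 chromosomes. Genes at the same relative place in different clusters descend from 1 ancestral gene and form a paralog group, numbered from anterior to posterior, and in the embryo a gene of higher number begins to be expressed further back along the body. In the developing cord this order sets the identity of segments. Hox6 and Hox8 genes are known from forelimb and trunk levels, Hoxc9 from thoracic levels, Hox10 and Hox11 genes from lumbar levels and Hox12 and Hox13 genes from the sacral and tail region. Hoxb8 has a further tie to the dorsal horn, since mice without it have fewer dorsal horn neurons and altered responses to painful stimuli.

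The clusters also hold microRNA genes, those of miR-10 and miR-196, which target Hox mRNAs. The mature sequences from RefSeq (GRCm38.p6) are shown with miR-96, the microRNA removed in the study, because they bear on which Hox transcripts could pair with each. Capitals mark the seed, bases 2 to 8. The seeds of the 3 microRNAs differ from one another.
miR-96-5p: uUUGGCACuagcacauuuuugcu
miR-196a-5p: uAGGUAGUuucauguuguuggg
miR-10a-5p: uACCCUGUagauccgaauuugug

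A match to miR-96 was searched in the longest annotated 3′ UTR of each Hox gene, as GTGCCAA (pairing with bases 2 to 8) or TGCCAAA (pairing with bases 2 to 7, then A), on the transcript strand, where the 2 forms can overlap. It was present in 3 of the 37 Hox genes with an annotated 3′ UTR, Hoxa5, Hoxa9 and Hoxa11, all 3 of them among the 30 such genes that were tested below. Among all 13054 tested genes with a 3′ UTR, 20.5% held a match, and UTR length was not matched in that comparison. The sites with their flanks are given below on the transcript strand (minus strand, GRCm38), with the match in capitals.
Hoxa5 at chr6:52202217-52202244: agcccccccacctcgtttaGTGCCAAtg
Hoxa5 at chr6:52201760-52201787: gttctcttggtctgatttaTGCCAAAta
Hoxa9 at chr6:52223802-52223829: ttcgtgtggcagatcattcTGCCAAAat
Hoxa9 at chr6:52223116-52223143: tgtcgagatatttaactttTGCCAAAta
Hoxa11 at chr6:52243026-52243053: cactggagattgggcccccTGCCAAAcc

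Hox transcripts also hold sites for the microRNAs encoded within the clusters. A miR-196a match (ACTACCT or CTACCTA) was found in 8 of the 37 Hox genes and in 7 of the 30 tested ones, against 11.9% of all tested genes with a 3′ UTR. Hoxa7 held 4 of them. A miR-10a match (ACAGGGT or CAGGGTA) was found in 5 of the 30 tested Hox genes, Hoxa3, Hoxa7, Hoxb3, Hoxd1 and Hoxd10, against 19.8% of all tested genes. Hoxb8, the Hox gene of highest level in these libraries, held no perfect miR-196a seed match, but 1 stretch of its 3′ UTR pairs with miR-196a over its whole length of 22 bases, with 21 Watson-Crick pairs and 1 G:U pair. It is a site at which Hoxb8 mRNA is known to be cut in mouse embryos. The next best stretch of that UTR paired at 16 bases. The G:U position is the small letter in the Hoxb8 line below, and in the other lines the seed match is in capitals. The Hoxb8 and Hoxb7 lines are on the plus strand and the Hoxa7 line is on the minus strand of GRCm38.
Hoxb8 at chr11:96284888-96284909: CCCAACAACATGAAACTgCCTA
Hoxb7 at chr11:96289780-96289807: aacactgtaaaaaaatatACTACCTAtg
Hoxa7 at chr6:52215361-52215388: tttgagaggcactcccaaACTACCTAtg

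Hox transcripts were abundant in the adult dorsal horn. Values are in FPKM, fragments scaled by transcript length and by the depth of the library, so that levels can be set side by side between genes of different length. Of the 38 genes, 31 had a mean of at least 1 FPKM over the 8 libraries and were tested, and each of these 31 was above 0 in every library. A mean of 10 FPKM was reached by 19 genes, beside a median of 12.7 FPKM over all 15061 tested genes. The 38 means summed to 1001 FPKM, of which 54.7% came from cluster B, 21.4% from cluster A, 15.4% from cluster C and 8.57% from cluster D.

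**Figure D1:**
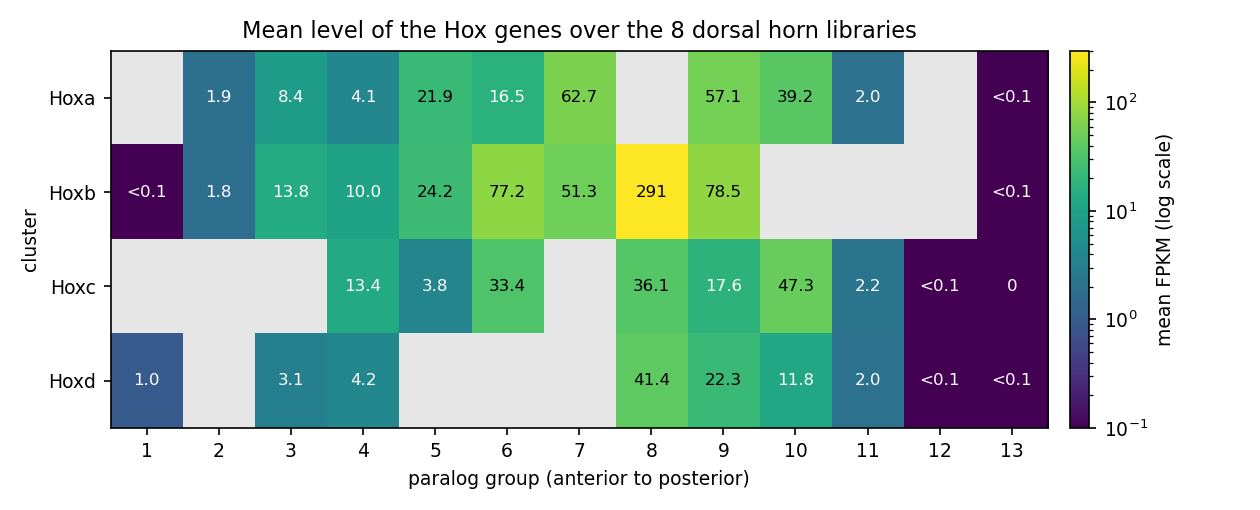
Mean FPKM over the 8 libraries, on a log colour scale, for each Hox gene by cluster (rows) and paralog group (columns). Grey cells have no gene analysed here. Levels are highest in groups 6 to 10, at 291 FPKM for Hoxb8, lie near 2 FPKM in group 11 and are under 0.1 FPKM in groups 12 and 13.

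The level peaked in the middle of each cluster and at a different place in each. Hoxa7 had the highest mean of cluster A (62.7 FPKM), Hoxb8 of cluster B (290.8 FPKM), Hoxc10 of cluster C (47.3 FPKM) and Hoxd8 of cluster D (41.4 FPKM). The same gene led its cluster in all 8 libraries, in each of the 4 clusters. By paralog group, group 8 made up 36.8% of the summed level, group 9 17.5%, group 6 12.7%, group 7 11.4% and group 10 9.82%. Groups 1 to 3 together gave 3.01%, groups 4 and 5 8.15%, and group 11 0.617%.

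Hoxb8 (chromosome 11, 96281905 to 96285315, plus strand) stood far above its neighbours and was at the 98.1 percentile of all tested genes. It had 228, 279, 310.4 and 282 FPKM in the miR-96 KO libraries 1 to 4, against 329, 303, 273 and 322 FPKM in the WT libraries 1 to 4. KO library 1 was the lowest, and the groups overlapped. The Hoxb8 mean was 5.67 times that of Hoxb7 (4.66 to 6.22 over the libraries), whose start lies 4718 bp away, and 3.70 times that of Hoxb9 (3.4 to 4.15), whose start lies 10448 bp away.

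The Hoxb8 promoter is shown because of that step in level, with that of Hoxd8, the leading gene of cluster D and its paralog. Both run from 250 bases before to 50 bases after the start (RefSeq, GRCm38.p6, plus strand). Capitals mark TTTAT, a core sequence bound by posterior Hox and caudal-type proteins, or its reverse complement ATAAA. Hoxb8 held 6 matches and Hoxd8 none, while Hoxd4, with a mean of just 4.18 FPKM, also held 6. Over all 32851 promoters of this length 40.0% held at least 1 match and 1.21% held 5 or more. Of the 22 Hox genes with a promoter entry, 8 held at least 1. A match is a stretch of letters and not a measured binding site.
Hoxb8 promoter at chr11:96281655-96281954: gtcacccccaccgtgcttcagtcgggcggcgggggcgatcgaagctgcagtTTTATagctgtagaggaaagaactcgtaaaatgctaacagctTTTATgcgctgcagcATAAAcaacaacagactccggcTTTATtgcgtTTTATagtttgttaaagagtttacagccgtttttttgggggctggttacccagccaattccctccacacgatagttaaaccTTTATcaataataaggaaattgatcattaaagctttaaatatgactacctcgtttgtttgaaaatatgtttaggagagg
Hoxd8 promoter at chr2:74704365-74704664: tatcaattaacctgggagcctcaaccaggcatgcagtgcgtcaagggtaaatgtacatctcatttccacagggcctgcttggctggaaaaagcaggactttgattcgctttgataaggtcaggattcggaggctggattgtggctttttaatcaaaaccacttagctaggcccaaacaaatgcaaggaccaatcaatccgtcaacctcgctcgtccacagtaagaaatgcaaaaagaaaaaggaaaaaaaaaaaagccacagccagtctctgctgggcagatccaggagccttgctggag

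The 3 genes next in level belong to clusters A and B. Hoxb9 (chromosome 11, 96271457 to 96276595), a trunk-level gene, had 61.9, 75.0, 91.4 and 78.3 FPKM in the KO libraries, against 79.4, 84.8, 76.1 and 81.3 FPKM in WT. Hoxb6 (chromosome 11, 96292476 to 96301569) had 65.7, 80.2, 89.3 and 64.7 FPKM in KO, against 84.4, 76.9, 71.2 and 85.4 FPKM in WT. Hoxa7 (chromosome 6, 52214491 to 52221854) had 52.8, 61.0, 63.7 and 73.8 FPKM in KO, against 59.0, 61.6, 62.2 and 67.3 FPKM in WT. For each of these genes the KO values ran both below and above the whole WT range.

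Hoxa9 (chromosome 6, 52223100 to 52231089) had 49.9994, 56.1, 58.9 and 59.8 FPKM in KO, against 56.9, 52.6, 56.3 and 66.1 FPKM in WT. Hoxb7 (chromosome 11, 96286623 to 96290162) had 40.3, 45.9, 56.1 and 49.7 FPKM in KO, against 70.7, 49.1, 47.1 and 51.7 FPKM in WT. Both overlapped between the genotypes, and for Hoxb7 WT library 1 lay above all others. Hoxc8 (chromosome 15, 102990607 to 102994111) had 37.7, 38.8, 29.1 and 42.3 FPKM in KO, against 44.8, 26.4, 32.0 and 37.3 FPKM in WT, so that both the highest and the lowest value were in WT. Ordered by mean level, neighbouring genes had overlapping ranges over the 8 libraries at all but 3 of the 30 steps. The exceptions were Hoxb8 above Hoxb9, Hoxa3 above Hoxd4 and Hoxb2 above Hoxd1.

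**Figure D2:**
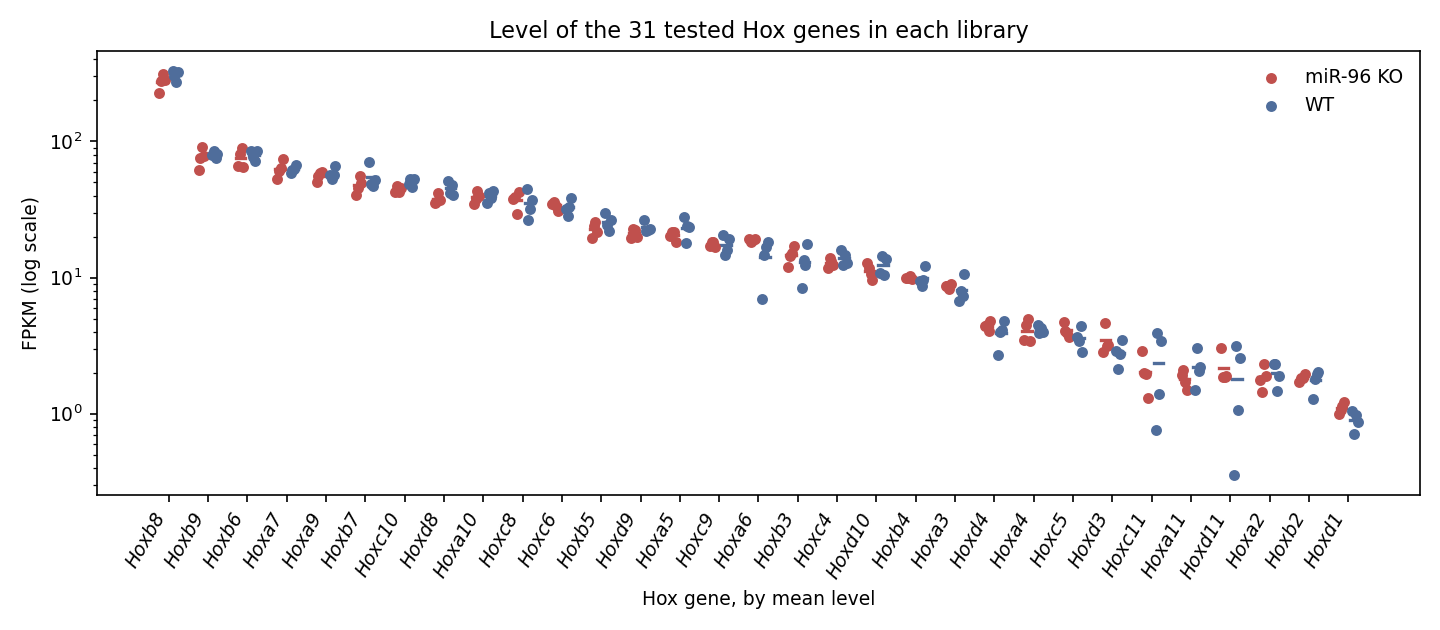
FPKM on a log axis for the 31 tested Hox genes, by mean level, with 1 point per library (miR-96 KO left in red, WT right in blue) and a dash at each group's mean. The 2 groups overlap for every gene but Hoxa6, and the widest spreads are those of Hoxc11 and Hoxd11.

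At the posterior end the level fell off steeply between paralog groups 10 and 11. Group 10 genes mark lumbar levels in the embryo, where Hoxc10 and Hoxd10 take part in specifying hindlimb motor neurons. Hoxc10 (chromosome 15, 102966796 to 102971893) had 42.6, 47.3, 42.3 and 45.1 FPKM in KO, against 48.6, 53.1, 46.1 and 53.2 FPKM in WT, with 1 KO library above the lowest WT library. Hoxa10 (chromosome 6, 52231197 to 52240854) had 34.5, 37.6, 42.9 and 40.0 FPKM in KO, against 35.3, 42.1, 38.3 and 43.2 FPKM in WT. Hoxd10 (chromosome 2, 74691924 to 74695105) had 12.8, 11.8, 10.6 and 9.55 FPKM in KO, against 10.9, 14.5, 10.4 and 13.7 FPKM in WT. The genotypes overlapped for all 3 genes, and each varied by 14.8% or less (coefficient of variation over the 8 libraries).

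The group 11 genes lay near 2 FPKM and varied far more. Hoxa11 (chromosome 6, 52242106 to 52245810), a gene of limb and kidney development, had 1.92, 2.08, 1.71 and 1.49 FPKM in KO, against 1.48, 3.05, 2.06 and 2.19 FPKM in WT. Hoxc11 (chromosome 15, 102954427 to 102957708) had 2.90, 1.98, 1.95 and 1.3 FPKM in KO, against 0.760, 3.92, 1.40 and 3.405 FPKM in WT. Hoxd11 (chromosome 2, 74679557 to 74687016) had 3.02, 1.86, 1.86 and 1.90 FPKM in KO, against 0.357, 3.16, 1.07 and 2.58 FPKM in WT. WT library 2 was the highest and WT library 1 the lowest of the 8 for each of the 3 genes, and for Hoxc11 and Hoxd11 the same 3 libraries, WT 2, WT 4 and KO 1, were above all others. The coefficient of variation over the 8 libraries was 50.1% for Hoxc11, 48.1% for Hoxd11 and 25.1% for Hoxa11. By the estimated depth, Hoxc11 rested on about 224, 123, 154 and 76.3 fragments in KO libraries 1 to 4, against 47.7, 292, 99.2 and 241 in WT libraries 1 to 4.

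The step between neighbours was 19.7-fold between the means of Hoxa10 and Hoxa11 (13.8 to 26.9 over the libraries), with their starts 4956 bp apart. It was 21.5-fold between Hoxc10 and Hoxc11 (13.5 to 64.0) and 5.97-fold between Hoxd10 and Hoxd11 (4.25 to 30.4). The promoters of Hoxa11 and Hoxd11 are shown because these genes shared the highest and the lowest library, in the same window and with the same capitals as above. Hoxd11 held 2 matches in the window shown and Hoxa11 none. A second RefSeq entry for Hoxd11, at a start further inside the gene, held none either. The Hoxa11 window is on the minus strand and the Hoxd11 window on the plus strand.
Hoxa11 promoter at chr6:52245761-52246060: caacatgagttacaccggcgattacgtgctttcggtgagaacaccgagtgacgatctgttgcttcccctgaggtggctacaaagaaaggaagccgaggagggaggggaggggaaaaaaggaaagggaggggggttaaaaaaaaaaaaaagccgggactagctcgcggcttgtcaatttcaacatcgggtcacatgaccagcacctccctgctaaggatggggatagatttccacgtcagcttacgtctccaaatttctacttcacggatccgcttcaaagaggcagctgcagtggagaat
Hoxd11 promoter at chr2:74679308-74679607: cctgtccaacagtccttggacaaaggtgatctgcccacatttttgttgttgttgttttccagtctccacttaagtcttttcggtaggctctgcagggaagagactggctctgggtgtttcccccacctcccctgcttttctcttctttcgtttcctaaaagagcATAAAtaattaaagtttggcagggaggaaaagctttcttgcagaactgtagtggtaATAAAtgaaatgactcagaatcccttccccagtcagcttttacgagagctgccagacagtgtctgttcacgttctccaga

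Summed over group 11, the KO libraries held 7.84, 5.92, 5.52 and 4.69 FPKM, against 2.60, 10.1, 4.53 and 8.17 FPKM in the WT libraries, and the WT range enclosed the KO range. The log2 ratio of summed FPKM of groups 10 to 13 over that of groups 4 to 9, a description of how far each library leans to posterior genes, was -2.91, -3.05, -3.18 and -3.09 in KO, against -3.29, -2.82, -3.07 and -2.98 in WT. Its mean was -3.06 ± 0.11 in KO and -3.04 ± 0.20 in WT (SD, n = 4 each), so the genotype means differed by less than the spread within either genotype. WT library 1 had the lowest and WT library 2 the highest ratio of all 8. Markers of motor and cholinergic neurons, which include motor neurons of the ventral horn that also express posterior Hox genes, varied between libraries as well. Their summed level over 6 genes was 75.9, 34.2, 16.7 and 43.1 FPKM in KO, against 22.5, 62.8, 53.3 and 14.6 FPKM in WT, with Chat, which makes acetylcholine, between 1.44 and 7.79 FPKM. KO library 1 and WT library 2 were high in both sums, while WT library 4 had the lowest motor sum and the second highest group 11 sum. Their part in the group 11 values was not tested. In bulk tissue, fewer cells of a type and less RNA per cell cannot be told apart.

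**Figure D3:**
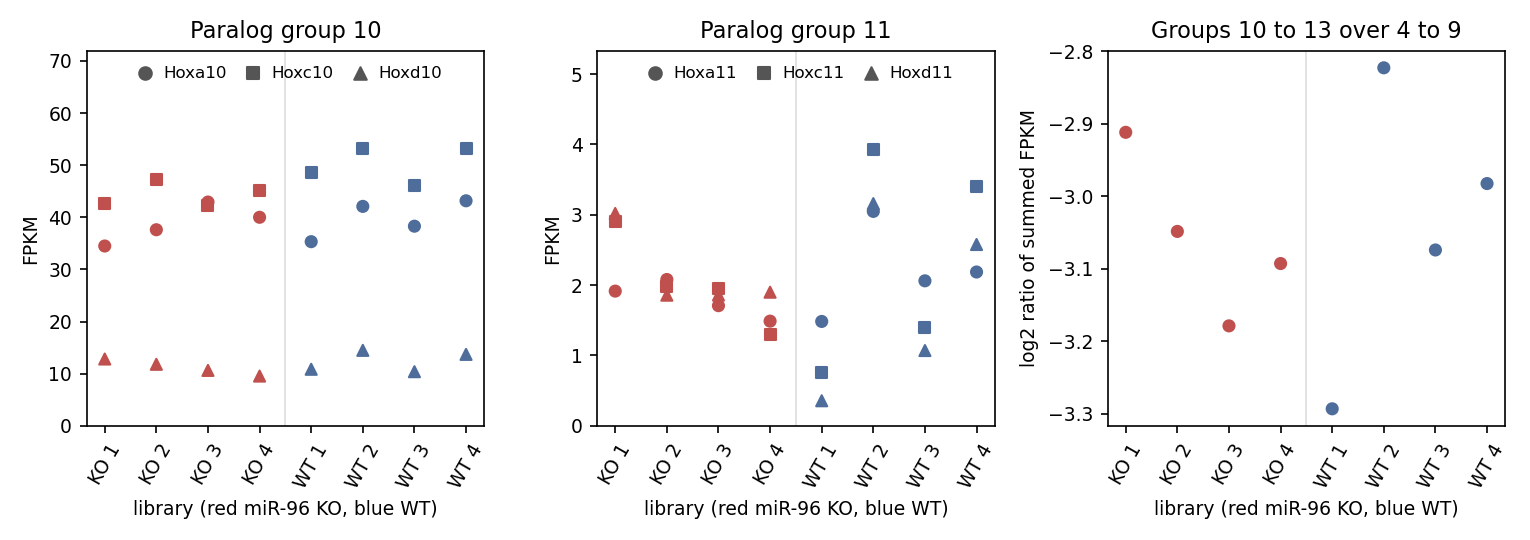
FPKM of the group 10 genes (left) and group 11 genes (middle) in each library, and the log2 ratio of summed FPKM of groups 10 to 13 over groups 4 to 9 (right), with miR-96 KO libraries in red and WT in blue. Group 10 genes are steady, whereas Hoxc11 and Hoxd11 range from 0.760 to 3.92 FPKM and from 0.357 to 3.16 FPKM, both ends within WT.

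The 7 genes under 1 FPKM lie at the 2 ends of the series, and were not tested. They are Hoxb1, a hindbrain gene of group 1, and all 6 analysed genes of groups 12 and 13, Hoxc12, Hoxd12, Hoxa13, Hoxb13, Hoxc13 and Hoxd13. Hoxc13 was listed at 0 in every library. Hoxa13 was above 0 in 1 WT library alone, at 0.024 FPKM, and Hoxb13 in 2 KO libraries, at 0.0141 and 0.0149 FPKM. Hoxd13 had between 0 and 0.0625 FPKM in KO, against 0 to 0.0982 FPKM in WT. Hoxc12 reached 0.251 FPKM in WT library 2, the library with the highest group 11 sum. Hoxb1 had 0.0173 to 0.0512 FPKM in KO, against 0 to 0.17 FPKM in WT.

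The 6 tested anterior genes, of groups 1 to 3, were present. All but Hoxb3 had a mean under 12.7 FPKM, the median over all tested genes. Hoxb3 (chromosome 11, 96323326 to 96347930) averaged 14.7 ± 2.06 FPKM in KO and 12.97 ± 3.81 FPKM in WT, and Hoxa3 (chromosome 6, 52169062 to 52213336) 8.66 ± 0.278 FPKM in KO and 8.16 ± 1.72 FPKM in WT. Hoxd3 averaged 3.46 ± 0.803 FPKM in KO and 2.80 ± 0.546 FPKM in WT. Means are given with SD over the 4 libraries of a genotype. The hindbrain genes of group 2 lay lower still, with Hoxa2 at 1.86 ± 0.352 FPKM in KO and 1.99 ± 0.403 FPKM in WT, and Hoxb2 at 1.83 ± 0.103 FPKM in KO and 1.76 ± 0.336 FPKM in WT. Hoxd1, a gene also known from pain-sensing neurons of the mouse, was at 1.10 ± 0.0991 FPKM in KO and 0.904 ± 0.15 FPKM in WT. Groups 1 to 3 summed to 28.01, 32.3, 31.9 and 34.3 FPKM in KO, against 22.7, 28.4, 26.8 and 36.7 FPKM in WT, with the highest and the lowest sum in WT.

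The remaining genes belong to groups 4 to 9. Group 4 genes are known from cervical levels. Hoxa4 averaged 4.08 ± 0.751 FPKM in KO and 4.15 ± 0.254 FPKM in WT, Hoxb4 10.02 ± 0.210 FPKM in KO and 9.97 ± 1.49 FPKM in WT, Hoxc4 12.9 ± 0.921 FPKM in KO and 13.9 ± 1.62 FPKM in WT, and Hoxd4 4.45 ± 0.30 FPKM in KO and 3.92 ± 0.880 FPKM in WT. Of group 5, Hoxa5 and Hoxc5 are known from motor neurons of the neck that drive breathing. Hoxa5 averaged 20.5 ± 1.56 FPKM in KO and 23.3 ± 3.96 FPKM in WT, Hoxb5 22.7 ± 2.70 FPKM in KO and 25.6 ± 3.17 FPKM in WT, and Hoxc5 4.09 ± 0.472 FPKM in KO and 3.58 ± 0.655 FPKM in WT. Hoxc6, a forelimb-level gene, averaged 33.8 ± 2.16 FPKM in KO and 32.9 ± 4.18 FPKM in WT, and Hoxc9 17.7 ± 0.877 FPKM in KO and 17.5 ± 2.72 FPKM in WT. For each of these 9 genes the genotype means differed by less than the larger of the 2 SDs. Hoxc6 ranged from 28.2 to 38.3 FPKM over the 8 libraries and the lumbar gene Hoxa10 from 34.5 to 43.2 FPKM, so that a forelimb-level and a lumbar gene overlapped in level. No other level of the cord was measured here for comparison.

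The question of the study was how loss of miR-96 alters the transcripts of the dorsal horn, and for the Hox genes limma found no difference past the threshold. None of the 31 tested Hox genes had a Benjamini-Hochberg adjusted p under 0.05, and neither did any of the 15061 genes tested (0%). At an unadjusted p under 0.05 there was 1 Hox gene, Hoxd8, beside 831 of all tested genes (5.52%), of which 555 were higher in KO (3.69%) and 276 lower (1.83%). With 1 library left out that count over all genes ran from 325 without KO library 1 to 3151 without WT library 4. It was 352 without KO library 2, 425 without KO library 4 and 1438 without KO library 3. Without WT library 1, 2 or 3 it was 563, 607 or 711. Of the 31 Hox genes, 0 had an unadjusted p under 0.05 without KO library 1, 2 or 4. There were 3 without WT library 1, 2 without WT library 2 or 4 and 1 without KO library 3 or WT library 3. By the mean of log2(FPKM + 1), the scale of every direction given from here on, 13 Hox genes were higher in KO and 18 lower (Hoxa7, counted as lower, had an FPKM mean of 62.8 in KO and 62.5 in WT), beside 53.1% higher and 46.9% lower among all tested genes. Without KO library 1 the split was 18 higher and 13 lower. The median log2 fold change, KO minus WT on the log2(FPKM + 1) scale, was -0.035 over the Hox genes and 0.014 over all tested genes. The median size of the change was 0.125 for the Hox genes and 0.13 for all tested genes. A p that misses the threshold does not show that levels were equal. The median SE over the Hox genes was 0.125, and a change no larger than its SE passes neither threshold.

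**Figure D4:**
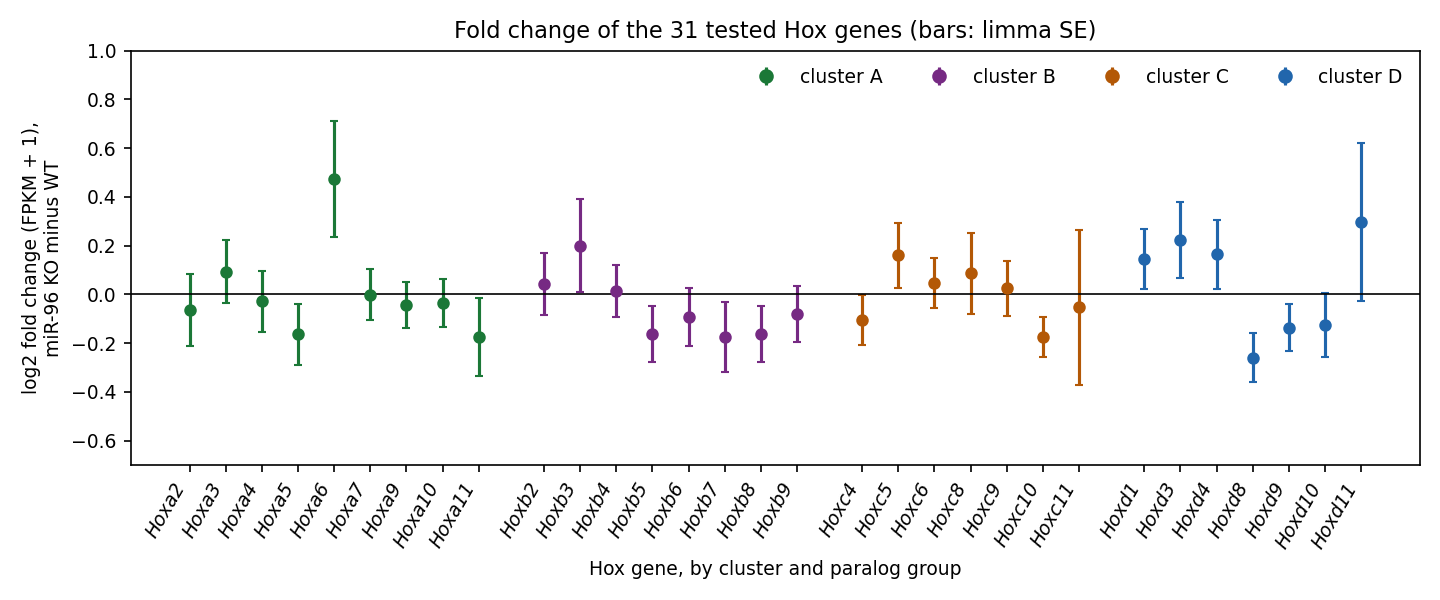
Log2 fold change on the log2(FPKM + 1) scale, miR-96 KO minus WT, with limma SE, for the 31 tested Hox genes by cluster and paralog group. Changes run from -0.26 for Hoxd8 to 0.47 for Hoxa6, and the bars of Hoxc11 and Hoxd11 are the widest.

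Hoxd8 (chromosome 2, 74704615 to 74707933, plus strand), the leading gene of its cluster and known in the trunk, had 35.4, 35.8, 41.9 and 36.9 FPKM in KO, against 51.4, 41.5, 47.7 and 40.4 FPKM in WT. Of the 4 KO libraries 3 lay below every WT library, and KO library 3 lay within the WT range. The means were 37.5 ± 3.02 FPKM in KO and 45.2 ± 5.20 FPKM in WT, a log2 fold change of -0.26 (SE 0.10, limma unadjusted p = 0.0275, adjusted p = 0.62). It kept its sign with each library left out, from -0.20 without WT library 1 to -0.31 without KO library 3. Its unadjusted p in limma was 0.0736 without KO library 1, 0.0716 without KO library 2, 0.059 without KO library 4 and 0.0741 without WT library 3, and stayed under 0.05 in the other 4 fits. With estimated library weights Hoxd8 was at -0.33 (SE 0.066, limma adjusted p = 0.0389). Those weights gave WT library 3 5.09 and WT library 1 0.153, and 1627 of all 15061 genes tested passed under them.

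Hoxc10, whose values are given above, had a log2 fold change of -0.18 (SE 0.081, limma unadjusted p = 0.0567, adjusted p = 0.62). Without WT library 3 Hoxc10 alone of the Hox genes passed the unadjusted threshold. Hoxa6 (chromosome 6, 52206288 to 52208722), a gene of the forelimb and trunk level, had 19.3, 18.2, 18.9 and 19.2 FPKM in KO, against 6.95, 14.6, 16.9 and 18.1 FPKM in WT. All 4 KO libraries lay above all 4 WT libraries, by a narrow margin at WT library 4 and a wide one at WT library 1. This was the single Hox gene of 31 whose groups did not overlap, beside 3.03% of all tested genes (1.91% with KO above and 1.12% with KO below). Its log2 fold change was 0.47 (SE 0.24, limma unadjusted p = 0.0765, adjusted p = 0.62), and without WT library 1 it was 0.19 (unadjusted p = 0.0493, adjusted p = 0.83). Hoxd9 (chromosome 2, 74697727 to 74700208) had 19.5, 22.7, 22.5 and 19.9 FPKM in KO, against 26.7, 21.9, 22.3 and 22.6 FPKM in WT, which gave -0.14 on the log2 scale (SE 0.096, limma adjusted p = 0.621). Its groups overlapped, and WT library 1 stood above the rest.

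**Figure D5:**
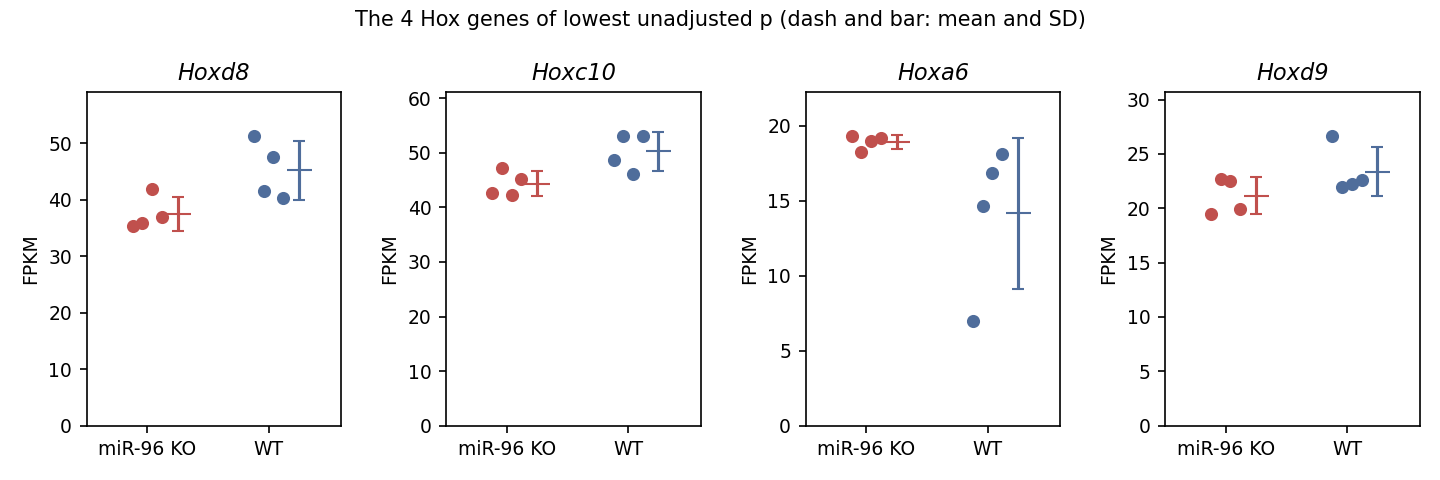
FPKM in each library of the 4 Hox genes of lowest unadjusted p, miR-96 KO in red on the left and WT in blue on the right of each panel, with mean and SD beside the points. Only the Hoxa6 groups do not overlap, and WT library 1 is the lowest point for Hoxa6 (6.95 FPKM) and the highest for Hoxd8 (51.4 FPKM) and Hoxd9 (26.7 FPKM).

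None of the 6 Hox genes of highest level had an unadjusted p under 0.05. Hoxb8 had a change of -0.16 on the log2 scale (SE 0.11, limma adjusted p = 0.621), and of -0.076 without KO library 1. With quantile normalization its change was -0.011 (SE 0.11). Hoxb9 was at -0.081 (SE 0.11), Hoxb6 at -0.092 (SE 0.12), Hoxb7 at -0.17 (SE 0.14), Hoxa9 at -0.043 (SE 0.095) and Hoxa7 at -0.00099 (SE 0.105). The 3 Hox genes with a miR-96 match in the 3′ UTR all had a lower mean in KO, with Hoxa5 at -0.16 (SE 0.13), Hoxa11 at -0.17 (SE 0.16) and Hoxa9 as above, and none passed the unadjusted threshold. A lower mean was also found for 18 of the 31 tested Hox genes and for 46.9% of all tested genes. Hoxa9 changed sign in some fits with 1 library left out, and Hoxa5 passed the unadjusted threshold without WT library 2.

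Along the clusters, the sign of the change ran in blocks in clusters B, C and D. In cluster B the anterior genes Hoxb2, Hoxb3 and Hoxb4 had a higher mean in KO (0.044, 0.20 and 0.015) and the 5 genes from Hoxb5 to Hoxb9 a lower one. In cluster D Hoxd1, Hoxd3 and Hoxd4 had a higher mean in KO (0.14, 0.22 and 0.16), Hoxd8, Hoxd9 and Hoxd10 a lower one, and Hoxd11 a higher one (0.30, SE 0.32). Hoxb2 and Hoxb4 changed sign with quantile normalization (-0.044 and -0.027), and Hoxb2, Hoxb4 and Hoxd11 without WT library 1 (-0.046, -0.0061 and -0.0051). Hoxb4 also did so without WT library 2 (-0.042) and with the length trend removed (-0.035), and Hoxb2 with library weights (-0.049). Among the lower genes, Hoxb9 turned higher without KO library 1 (0.017), and Hoxb6 and Hoxd10 with library weights (0.020 and 0.034). In cluster C the 4 genes from Hoxc5 to Hoxc9 had a higher mean in KO and Hoxc4, Hoxc10 and Hoxc11 a lower one. Each of these 4 turned to a lower mean under some alternative, Hoxc6, Hoxc8 and Hoxc9 without WT library 2 (-0.022, -0.038 and -0.054) and Hoxc5 with library weights (-0.0013). Cluster A had 2 genes higher in KO, Hoxa3 and Hoxa6, and 7 lower, in no blocks. By paralog group 5 of 6 tested genes of groups 1 to 3 had a higher mean in KO and 5 of 6 of groups 10 and 11 a lower one, but of these Hoxa10 turned higher without KO library 1 (0.019) or WT library 4 (0.0060), Hoxd10 as above, and Hoxc11 without WT library 2 (0.17), WT library 4 (0.12) or KO library 4 (0.071) and with library weights (0.13). None of these genes but Hoxd8 passed the unadjusted threshold, and neighbours in a cluster are not independent of each other. Hoxd3 and Hoxd4 share 62.3% and 52.3% of their exonic bases with each other or with an overlapping gene model on the same strand. Hoxb3 shares 52.9% with the antisense gene Hoxb3os, and strand use in counting is not given in the sources used here. Levels of these 3 genes are therefore uncertain, as are to a lesser degree those of the other 12 Hox genes that share exonic bases with another gene. The 23 remaining Hox genes share none.

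The libraries differed in ways that genotype does not describe, and the Hox genes show it. KO library 1 was the lowest of the 8 libraries for 10 of the 31 genes. WT library 1 was the highest for 9 and the lowest for 8, WT library 2 the highest for 5 and the lowest for 7, WT library 4 the highest for 9 and the lowest for 1, and WT library 3 was neither for any gene. Over all tested genes, WT library 1 stood furthest from the rest. Its Pearson correlations with the other libraries, on log2(FPKM + 1), were 0.955 to 0.969. All other pairs of libraries were at 0.980 or more. WT library 1 also held 185 FPKM of summed blood markers, against 15.5 to 34.6 FPKM in KO and 5.05 to 29.9 FPKM in the other WT libraries. KO library 1 had the highest sum of meningeal and fibroblast markers (231 FPKM, against 99.5 to 171 FPKM in the other KO libraries and 98.0 to 147 FPKM in WT). Schwann cell markers, which come from nerve roots, summed to 454 to 1060 FPKM in KO, against 518 to 1070 FPKM in WT. The part of these differences in the Hox values was not tested. Each library listed 24091 to 25560 genes above 0, from an estimated 32100000 to 43300000 fragments. Dorsal horn markers were present, with Slc17a6, the transporter of excitatory neurons, at a mean of 112 FPKM and Slc32a1, that of inhibitory neurons, at 81.7 FPKM. The 10 excitatory markers summed to 552 to 760 FPKM in KO, against 630 to 841 FPKM in WT. KO library 1 was the lowest and WT library 1 the highest. The 9 inhibitory markers summed to 425 to 486 FPKM in KO, against 397 to 505 FPKM in WT. Maf (0.34), Npy (-0.37) and Gal (-0.33) had an unadjusted p under 0.05 in limma (5.52% over all tested genes). In KO 4 excitatory markers were higher and 6 lower, and 4 inhibitory ones higher and 5 lower. Their part in the Hox values was not tested. Of 12 markers of brain levels rostral to the cord, 3 were listed at 0 in every library, Otx2 and Six3 among them, while Neurod6 had a mean of 2.18 FPKM, En2 of 1.07 FPKM and Lhx2 of 0.808 FPKM. The 12 summed to 4.29 to 4.99 FPKM in KO, against 4.075 to 5.48 FPKM in WT. The Mir96 gene gives no check of the genotype, because polyA libraries of long RNA do not measure mature microRNAs.

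Hox proteins bind DNA together with TALE homeodomain cofactors, and all 9 cofactor genes were expressed. Pbx2 was the most abundant, with 36.6, 37.1, 38.4 and 37.6 FPKM in KO, against 48.4, 40.9, 43.4 and 38.1 FPKM in WT (log2 fold change -0.18, SE 0.087). Meis3 was at -0.11 and Meis2 at 0.099. None of the 9 had an unadjusted p under 0.05 in limma, and 4 had a higher and 5 a lower mean in KO.

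Polycomb proteins keep Hox genes silent and Trithorax proteins keep them active. Over all lists of other genes, cell markers included, 143 genes were tested, 9 had an unadjusted p under 0.05 (5.52% did over all tested genes) and none passed the adjusted threshold in limma. Among Polycomb repressor genes, 20 of 27 had a higher mean in KO (53.1% over all tested genes), and 1 reached an unadjusted p under 0.05, Phc3 (24.5 ± 3.17 FPKM in KO and 18.1 ± 2.74 FPKM in WT, 0.43). Phc2 was at -0.23, Pcgf5 at 0.46 and Jarid2 at 0.20. Among Trithorax and related activator genes, 13 of 16 had a higher mean in KO and 3 reached an unadjusted p under 0.05, all higher, beside 53.1% and 3.69% over all tested genes. Kmt2a, a methyltransferase that keeps Hox genes active, was at 30.8 ± 5.33 FPKM in KO and 23.2 ± 4.95 FPKM in WT (0.40, SE 0.17), Kat6a at 0.41, the demethylase gene Kdm6a at 0.29 and Kmt2c at 0.32. WT library 1 had the lowest value of the 8 for Phc3, Pcgf5, Jarid2 and all 4 of these activator genes.

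Retinoic acid and the caudal-type Cdx proteins set Hox expression in the embryo. Cdx1, Cdx2 and Cdx4 were listed at 0 in all 8 libraries. Of 14 tested retinoid and caudal patterning genes 4 had a higher and 10 a lower mean in KO (46.9% were lower over all tested genes). Only Stra6, a receptor for retinol uptake, had an unadjusted p under 0.05, beside 5.52% over all tested genes. It averaged 7.0 ± 1.75 FPKM in KO and 5.15 ± 0.637 FPKM in WT (0.36, limma adjusted p = 0.62). Stra6 was highest in KO library 1, the library with the most meningeal markers. Rxrg was at -0.24, Crabp1 at -0.29 and Rxrb at -0.15. Of 11 tested noncoding genes of the Hox clusters, 7 had a higher mean in KO, beside 53.1% over all tested genes. The 1 with an unadjusted p under 0.05 was the miR-10a locus Mir10a, between Hoxb4 and Hoxb5, with 1.81, 2.54, 2.45 and 3.30 FPKM in KO, against 0.837, 1.88, 1.24 and 1.23 FPKM in WT (0.62, SE 0.18, limma adjusted p = 0.62). The groups overlapped, with WT library 2 above KO library 1. FPKM over so short a locus is uncertain, and it does not measure the mature microRNA. Mir615 was at 0.63, Hoxb5os at 0.26 and Hoxaas3 at 0.34. Hottip and Mir196b were listed at 0, and Hotair, transcribed between Hoxc11 and Hoxc12, lay at a mean of 0.208 FPKM. The even-skipped genes Evx1 and Evx2 next to clusters A and D were under 1 FPKM and not tested. Of 9 tested genes of limb-innervating motor columns, 8 had a higher mean in KO (53.1% over all tested genes) and none an unadjusted p under 0.05, with Foxp1, the Hox cofactor of those neurons, at 0.18 and Esrrg at 0.22. Motor and cholinergic markers, whose sums varied between libraries as given above, were higher in KO for 5 of 5 tested genes. Over all tested genes 53.1% were higher. The median change of these markers was 0.24, and none had an unadjusted p under 0.05 in limma. Prph was at just 0.017 (SE 0.49), with an FPKM mean of 18.4 in KO and 19.3 in WT. The part of these markers in the motor column values was not tested.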

How the data were processed

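The study measured polyA RNA in 8 libraries of mouse lumbar dorsal horn, 4 miR-96 KO and 4 WT. Per the labels' protocols, 1 µg of total RNA and a NEBNext Ultra kit were used. The authors deposited FPKM per gene, made with Cufflinks, HISAT2 and SAMtools per the submitters' processing notes. The notes list the build mm8, but the loci of all 38 Hox genes, and of 91.5% of genes with a symbol, equal the GRCm38 annotation. Versions, options and strand use were not given in the sources used here.

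Here limma 3.58.1 in R 4.3.3 (lmFit, eBayes with trend and robust, two-sided) was run on log2(FPKM + 1) over the 15061 genes with a mean of at least 1 FPKM, with Benjamini-Hochberg adjustment over all of them and a threshold of 0.05, without covariates. The pseudocount of 1 makes fold changes of low genes smaller. The code was tested on simulated data. Depth was estimated from the steps that single fragments leave in FPKM, assuming fragments of 200 nt (96.2% to 98.8% of values within 0.15 of a whole number, against 30% by chance). It limits genes under 1 FPKM most.

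Named are all 38 Hox genes, with every library for the 10 of highest mean, the 4 of lowest p and those of groups 10 to 13 with a mean of at least 1 FPKM, and from each pathway list up to 4 genes of lowest p. Some genes that this rule names are not reported here. Motor, blood, meningeal, Schwann, dorsal horn and rostral brain markers are given as summed levels, some with single genes. Sums of the other marker lists are not reported here. The Hox genes and the lists were chosen with earlier results of these data known. Alternatives were a pseudocount of 0.1, no filter, a mean of at least 5 FPKM, median-ratio rescaling, quantile normalization, no trend, the replicate number as a block, library weights, removal of each library's length trend, and each library left out.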

Additional observations from a re-analysis of the deposited data

Results flagged for a closer look

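Within each genotype, 78 groups of 4 values (the tested Hox genes and their sums) were searched for a library far from the other 3, a mark that chance gives to about 1 group in 20. It was found for 3 groups, no more than that rate would give. Hoxd11 was at 3.02 FPKM in KO library 1, against 1.86 to 1.90 FPKM in the other KO libraries. Hoxd9 was at 26.7 FPKM in WT library 1, against 21.9 to 22.6 FPKM in the other WT libraries. The summed level of cluster D was 95.96 FPKM in WT library 1, against 88.1 to 89.2 FPKM in the other WT libraries. The cluster D sum includes Hoxd9, so its mark is not independent of the Hoxd9 mark. No cause of these marks was tested.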

How the results depend on the processing

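Of the 31 Hox genes, 15 kept the sign of their log2 fold change under every alternative and 16 changed it under at least 1. The cause was not tested. No Hox gene passed the adjusted threshold under any alternative but library weights. There 1 of 31 did (Hoxd8, -0.33), beside 1627 of all 15061 genes tested. At unadjusted p under 0.05 those weights put 4 of the 31 Hox genes and 43 of the 143 listed genes, beside 5014 of all genes. With the length trend removed 2 Hox genes had an unadjusted p under 0.05, beside 857 of all genes. Quantile normalization split the genes of unadjusted p under 0.05 into 419 higher and 450 lower in KO, against 555 and 276 without it. Same-numbered KO and WT libraries did not deviate together (correlations of -0.108, -0.055, 0.024 and 0.144). Such correlations cannot show whether the libraries were paired by animal or batch, and the labels do not say. The replicate block left 1 Hox gene at unadjusted p under 0.05, beside 790 of all genes, and took the listed genes from 9 to 3.

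With 1 library left out, between 0 and 3 Hox genes and between 4 and 29 listed genes had an unadjusted p under 0.05. Over all genes that count ran from 325 to 3151. In those fits 0 or 1 of all genes passed the adjusted threshold, and the genotype difference of the posterior ratio ran from -0.098 to 0.059. Fold changes that crossed 0 then ran from -0.088 to 0.019 for Hoxa10, -0.16 to 0.0059 for Hoxa2, -0.11 to 0.036 for Hoxa4, -0.081 to 0.078 for Hoxa7, -0.088 to 0.020 for Hoxa9, -0.046 to 0.089 for Hoxb2, -0.042 to 0.10 for Hoxb4, -0.17 to 0.017 for Hoxb9, -0.32 to 0.17 for Hoxc11, -0.022 to 0.12 for Hoxc6, -0.038 to 0.21 for Hoxc8, -0.054 to 0.099 for Hoxc9 and -0.0051 to 0.53 for Hoxd11.

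Sign changes also came with library weights for Hoxa2 (0.049), Hoxb2 (-0.049), Hoxb6 (0.020), Hoxc11 (0.13), Hoxc5 (-0.0013) and Hoxd10 (0.034), with quantile normalization for Hoxa7 (0.029), Hoxb2 (-0.044), Hoxb4 (-0.027) and Hoxc9 (-0.0041), with the length trend removed for Hoxa7 (0.035) and Hoxb4 (-0.035), and with median-ratio rescaling for Hoxa7 (0.0010). All of these lay within 1 SE of 0.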
